A study of Homo sapiens with 12 samples.

Results

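NAD salvage and consumption genes were followed in 2 human melanoma cell lines, MeWo and SkMel28, in which doxycycline (Dox) switches on a short hairpin RNA against the transcription factor MITF. The 10 genes were taken by symbol: NAMPT, NMRK1, NMRK2, NAPRT, NMNAT1, NMNAT3, NADSYN1, NADK, NNMT and NT5E. Of these, 9 were among the 12616 genes of the normalised table, and NMNAT3, which encodes a mitochondrial NMN adenylyl transferase, was not listed there. The 12 libraries formed 4 groups of 3, namely each line with 0 µg/ml Dox (control) or with 1 µg/ml Dox for 8 days. Every group carried the hairpin construct, and no library here came from cells treated with Dox without the hairpin. MeWo cells were kept in EMEM and SkMel28 cells in RPMI per the labels, both with fetal bovine serum, whereas the study's methods give RPMI for human melanoma lines other than HBL. With the media as labelled, line and medium cannot be told apart. The symbols were listed with earlier results of these libraries known, among them NAMPT in both lines and NMRK2 in MeWo. The changes of NAMPT and NMRK2 with Dox are therefore given as a description, with no test, in either line. The adjusted p-values of the other members come from the fit over all genes and are no independent support for the choice of the list.

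NAD carries electrons in metabolism and is used up as a substrate by sirtuins, by ADP-ribosyltransferases of the PARP family and by NAD glycohydrolases, which release nicotinamide. Cells rebuild NAD from nicotinamide through NAMPT, from nicotinamide riboside through the kinases NMRK1 and NMRK2, and from nicotinic acid through NAPRT, with NMN adenylyl transferases and NAD synthetase completing the routes. MITF controls the identity of melanocytes and melanoma cells and binds the E-box CACGTG and its variant CATGTG.

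Values are reads per 1000000 after scaling of the libraries (normalised read count), from 3′ end sequencing, in which a transcript gives reads at its end whatever its length. The libraries held 2568187 to 3714608 reads on the listed features, spike-in RNAs included, so that 1 read was worth 0.278 to 0.389. MITF, the targeted gene, was 676 ± 27.9 in MeWo control and 392 ± 51.7 in MeWo Dox (SD, n = 3), and 797 ± 61.0 and 568 ± 13.8 in SkMel28. Its transcript fell in both lines, by 0.79 in MeWo and 0.49 in SkMel28 on the log2 scale (limma, adjusted p = 6.49e-05 and 0.00705), and remained present with Dox. All 8 melanocyte lineage markers were listed, with summed values of 11490 to 13280 in control and 6706 to 8414 in Dox libraries. Of the markers of other cells, 2 of 6 for fibroblasts (LUM and DCN, summed at 6.04 to 47.8) and 0 of 8 for keratinocytes, leukocytes and endothelial cells were listed. The fibroblast sum was lower with Dox, at 9.85 to 19.2 against 41.5 to 47.8 in MeWo and 6.04 to 8.91 against 10.9 to 13.3 in SkMel28, and its part in the results was not tested. In such bulk RNA, fewer cells of a type and less RNA per cell cannot be told apart. MeWo Dox replicate 1 stood apart from the other MeWo Dox libraries (r = 0.960 and 0.969, against 0.976 between those), and the MeWo changes of the named genes in which it lay apart are given with and without it.

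Promoter windows, the 250 bases before a transcript start in RefSeq (GRCh38.p14), were on hand for 7 of the 10 genes and were searched on both strands for the E-box and its variant. The E-box reads the same on both strands, whereas the variant reads CACATG on the other strand. The E-box occurred in 6.345% and the variant in 9.417% of 35116 windows of the same length. Among the 7 genes, only NADK, the cytosolic NAD kinase, had windows with a match, at starts 2 and 3 and not at start 1. NADK had more windows than any other of these genes, and either motif occurred in 15.22% of all windows. The windows at starts 2 and 3 are shown because they carry the E-box or its variant, in capitals. The longer consensus that the study gives for MITF, with a further base on either side, was not searched. The NMRK2 stretch is shown because this gene had the largest fall with Dox among the members. All 3 lie inside the annotated span of their gene and outside its annotated exons, the NMRK2 stretch in an intron of the longer transcripts.
Start 2 of NADK, chr1:1778817-1779066, minus strand: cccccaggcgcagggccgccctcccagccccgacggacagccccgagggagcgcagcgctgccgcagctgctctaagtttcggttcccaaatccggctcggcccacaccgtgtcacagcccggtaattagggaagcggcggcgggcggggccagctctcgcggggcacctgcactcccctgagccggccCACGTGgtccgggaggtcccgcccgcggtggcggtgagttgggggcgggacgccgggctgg
Start 3 of NADK, chr1:1758643-1758892, minus strand: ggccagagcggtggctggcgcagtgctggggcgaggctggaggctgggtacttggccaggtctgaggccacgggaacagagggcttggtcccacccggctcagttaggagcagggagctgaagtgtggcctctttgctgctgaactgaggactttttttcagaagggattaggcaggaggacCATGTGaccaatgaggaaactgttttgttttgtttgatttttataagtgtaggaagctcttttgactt
Stretch of NMRK2, chr19:3933339-3933457, plus strand, no match: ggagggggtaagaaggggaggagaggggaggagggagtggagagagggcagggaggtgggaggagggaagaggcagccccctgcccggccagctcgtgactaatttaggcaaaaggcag
Positions of the matches began 61 and 68 bases before NADK starts 2 and 3. The window of NADK start 1 and those of NAMPT, NMRK2, NMNAT1, NMNAT3, NADSYN1 and NT5E held neither motif. A match or its absence is a description of these letters and no measurement of binding. The NAMPT window had 209 and the NT5E window 250 of its 250 bases in annotated exons. Both windows thus lay past other annotated starts of these genes. The study lists Nampt among the genes bound by MITF, TFEB and TFE3. It also reports Nampt as moderately lower in mouse melanoma cells with MITF knocked out. In human melanoma cells with induced MITF it reports NAMPT as higher. The change of NAMPT with Dox in the present lines, given below, had the opposite direction, and the reason was not tested.

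With Dox, NAMPT transcript was higher and NMRK2 transcript lower in both lines, NNMT rose in MeWo, and NT5E fell in SkMel28. Of the 7 members other than NAMPT and NMRK2, NNMT (higher) passed an adjusted p of 0.05 in MeWo in the fit over all genes, where 16.7% of all genes did, 8.58% higher and 8.12% lower. In SkMel28, NT5E (lower) passed, where 10.9% of all genes did, 5.88% higher and 5.04% lower. The libraries of Dox and control did not overlap in 4 of 9 members in MeWo (28.8% of all genes) and in 5 of 9 in SkMel28 (32.3% of all genes). As the list was drawn up with values of these comparisons known, nothing is read from these counts. The median log2 change of the members was 0.34 in MeWo and −0.09 in SkMel28, against 0.00 over all genes in each line.

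**Figure D1:**
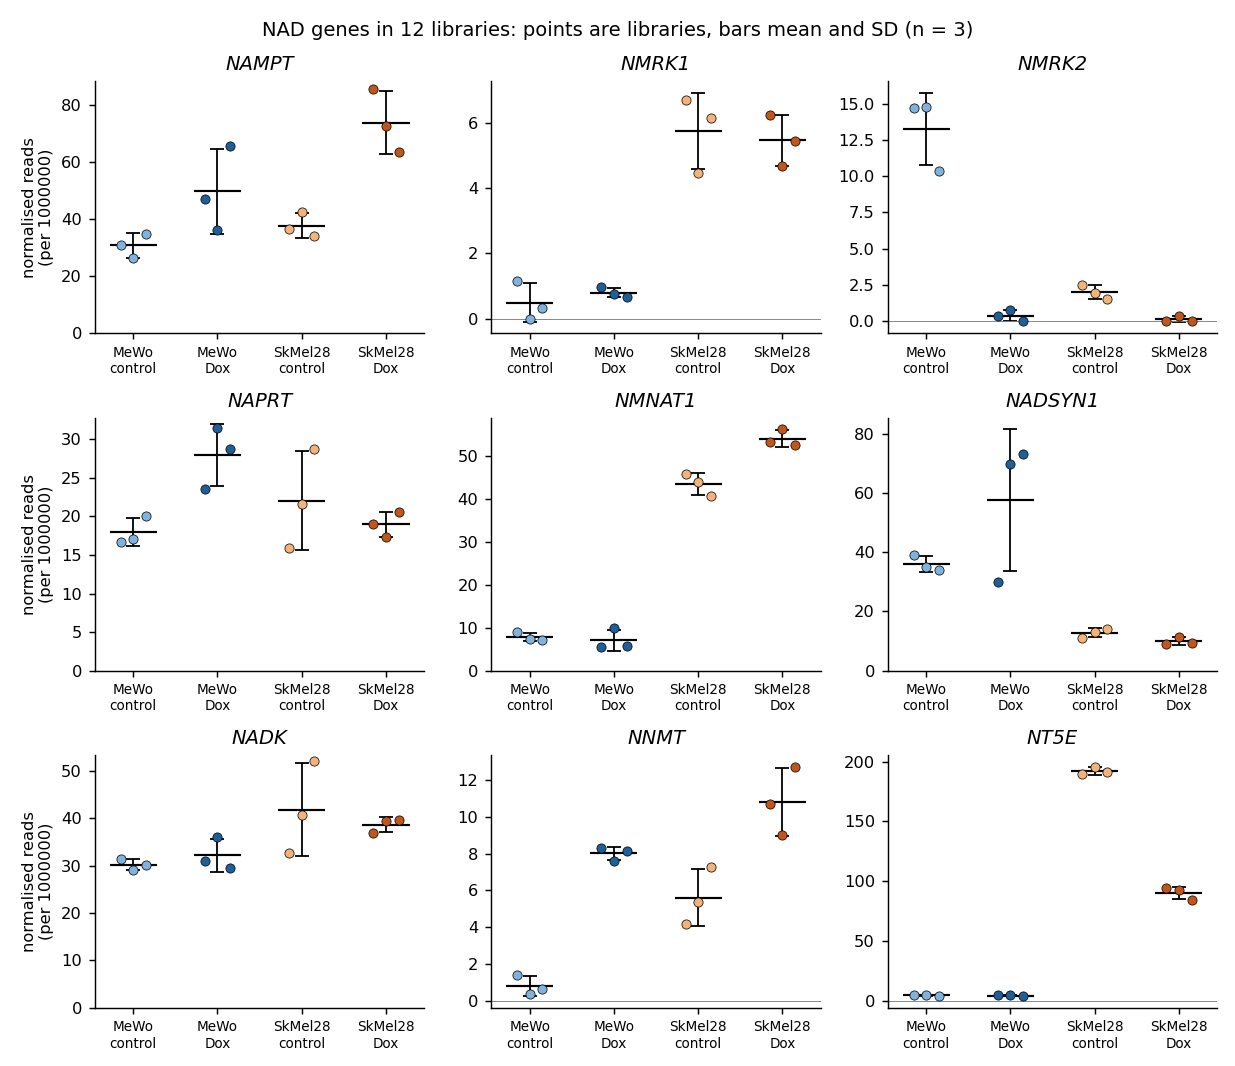
Normalised read count (y axis, reads per 1000000, linear from 0) of the 9 listed NAD genes in the 4 groups (x axis); points are the 3 libraries of a group and the bars are mean and SD. NMRK2 was between 10.4 and 14.8 in MeWo control and at most 0.758 in every Dox library, and NT5E was between 84.6 and 196 in SkMel28 and at most 5.05 in MeWo.

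NAMPT is the rate-limiting enzyme of NAD salvage from nicotinamide; the gene lies at chr7:106248298-106285966 on the minus strand (hg38). It was 31.1, 26.4 and 35.0 in MeWo control and 47.2, 36.4 and 65.7 in MeWo Dox. The groups did not overlap, although the lowest Dox library lay just above the highest control. The change was 0.64 ± 0.19 on the log2(value + 1) scale (SE), a 1.61-fold ratio of the means. In SkMel28 it was 36.8, 42.5 and 34.1 in control and 85.5, 72.5 and 63.5 with Dox. All 3 SkMel28 Dox libraries were above every control library, with a change of 0.94 ± 0.19 and a 1.95-fold ratio of the means. The MeWo change was 0.65 without control replicate 1, 0.54 without control replicate 2 and 0.42 without Dox replicate 3, so the size rested in part on the last library. The order of the group means was MeWo control, SkMel28 control, MeWo Dox and SkMel28 Dox, and each group overlapped its neighbour in that order. The processed pseudogenes NAMPTP1 to NAMPTP3 are annotated and were not listed in the table, so reads shared with such copies leave the level uncertain.

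NMRK2 is a nicotinamide riboside kinase best known from skeletal and heart muscle; the gene lies at chr19:3933069-3942416 on the plus strand. It was 14.7, 14.8 and 10.4 in MeWo control and 0.319, 0.758 and 0 in MeWo Dox. These values stand for 121 reads against 3 reads over the 3 libraries of each group. The ratio of control to Dox was 38.5, with a counting interval of 12.9 to 189 (95%, exact). In SkMel28 control it was 2.51, 1.90 and 1.53, from 19 reads in all, and with Dox 1 read was left in 1 of 3 libraries. The SkMel28 ratio of control to Dox was 19.6, with a counting interval of 3.12 to 816. These intervals cover counting error only, since the library kit is not stated to mark single molecules. Thus, Dox and control libraries did not overlap in either line, and the transcript was near the limit of detection in both lines with Dox. The fitted changes of −3.41 ± 0.29 in MeWo and −1.42 ± 0.29 in SkMel28 depend on the added constant at such low counts. Their difference of −1.99 between the lines was −1.27 with edgeR and −1.07 with DESeq2 on the reads, and the counting interval of the SkMel28 ratio included the MeWo ratio of 38.5.

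NMRK1, the other riboside kinase (chr9:75060573-75088217, minus strand), differed between the lines and not detectably with Dox. It was 1.15, 0 and 0.324 in MeWo control and 0.958, 0.758 and 0.677 in MeWo Dox, from 5 and 7 reads. In SkMel28 it was 6.68, 4.44 and 6.13 in control and 6.23, 4.68 and 5.44 with Dox. The 6 SkMel28 libraries were all above the 6 MeWo libraries, and the SkMel28 control group exceeded MeWo control by 2.24 ± 0.29 (limma, adjusted p = 6.05e-06). The changes with Dox were 0.34 (95% interval −0.28 to 0.96) in MeWo and −0.06 (−0.68 to 0.56) in SkMel28. Hence, the control cells of the lines stood in opposite order for the kinases. NMRK2 was lower in SkMel28 than in MeWo by 2.26 ± 0.29. That value is a description, as the MeWo values of NMRK2 were known when the list was made.

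NNMT methylates nicotinamide, which removes it from salvage and uses the methyl donor S-adenosylmethionine; the gene lies at chr11:114257787-114313536 on the plus strand. It was 1.44, 0.389 and 0.648 in MeWo control, from 8 reads, and 8.30, 7.58 and 8.13 in MeWo Dox, from 70 reads. All MeWo Dox libraries were far above the controls and close to each other. The ratio of Dox to control was 9.16 (counting interval 4.40 to 22.1), and the fitted rise of 2.34 ± 0.27 had an adjusted p of 9.64e-06 (limma). In SkMel28 it was 4.18, 5.39 and 7.28 in control and 10.7, 9.02 and 12.7 with Dox. Here too the groups did not overlap, and the change of 0.85 ± 0.27 just missed the threshold (limma, adjusted p = 0.052). It passed under 7 of 22 alternatives, among them edgeR on the reads (0.97) and fits without SkMel28 control replicate 3 (1.02), MeWo control replicate 1 or MeWo Dox replicate 1 (0.85 in both). The change was larger in MeWo than in SkMel28 by 1.49 ± 0.38 (limma, adjusted p = 0.0265). That difference no longer passed with a constant of 5 added to the values (0.58) or when any of 7 single libraries was left out (1.32 to 1.5). These were MeWo control replicates 2 and 3, MeWo Dox replicate 3, SkMel28 control replicates 2 and 3, and SkMel28 Dox replicates 1 and 2. The 4 groups stood in the order MeWo control, SkMel28 control, MeWo Dox and SkMel28 Dox, with no overlap between neighbours.

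**Figure D2:**
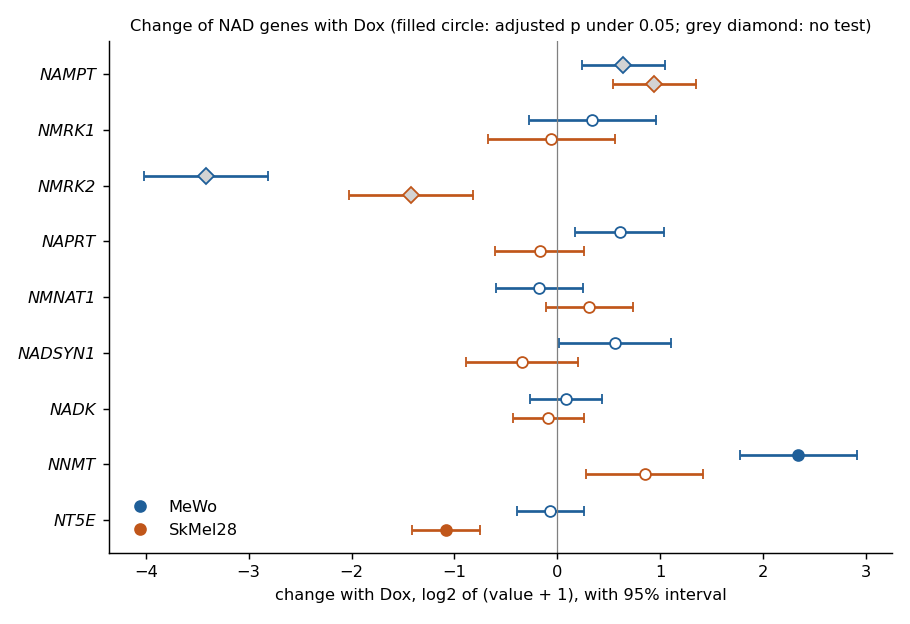
Change with Dox (x axis) of the 9 listed NAD genes (y axis) in MeWo and SkMel28. The x axis is the difference of log2(value + 1) between Dox and control, with its 95% interval. Filled circles passed an adjusted p of 0.05 over all genes. Grey diamonds mark NAMPT and NMRK2, for which no test is given. NMRK2 lay at −3.41 and −1.42, NNMT at 2.34 and 0.85, and NT5E at −0.07 in MeWo and −1.08 in SkMel28.

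NT5E (CD73) is the ectonucleotidase at the cell surface that turns AMP into adenosine and can also split NMN into nicotinamide riboside; the gene lies at chr6:85449584-85495791 on the plus strand. It was 190, 196 and 192 in SkMel28 control and 94.4, 92.2 and 84.6 in SkMel28 Dox. The replicates lay close together, and every Dox library was below every control. The fall was 1.08 ± 0.15 on the log2 scale (limma, adjusted p = 0.000156), a 2.13-fold ratio of the means. In MeWo it was 4.61, 5.05 and 3.89 in control and 4.47, 4.55 and 3.73 with Dox, and the groups overlapped. The MeWo change of −0.07 had a 95% interval of −0.40 to 0.26, which was above the SkMel28 change. The difference between the lines was 1.01 ± 0.22 (limma, adjusted p = 0.0106) and had the same size but no longer passed with DESeq2 (1.03). NT5E also had the largest difference between the lines among the members, at 5.14 ± 0.15 in control cells (adjusted p = 7.12e-14) and 4.12 ± 0.15 with Dox. The reads of the control groups gave a ratio of 42.8 of SkMel28 to MeWo.

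NAPRT, which starts salvage from nicotinic acid (chr8:143574785-143578649, minus strand), was 16.7, 17.1 and 20.1 in MeWo control and 23.6, 31.5 and 28.8 in MeWo Dox. The MeWo groups did not overlap, and the change of 0.61 ± 0.20 missed the threshold by little (limma, adjusted p = 0.0502). It passed under 8 of 22 alternatives, among them edgeR (0.63), a fit without MeWo Dox replicate 1 (0.72) and fits without SkMel28 control replicate 1 or 3 (0.61 in both). In SkMel28 it was 15.9, 21.6 and 28.7 in control and 19.0, 17.4 and 20.5 with Dox. The 3 SkMel28 controls were spread more widely than all Dox libraries, and the change of −0.17 was 0.03 without control replicate 3.

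NADSYN1 makes NAD from its nicotinic acid form (chr11:71453109-71524107, plus strand) and was the member that turned on 1 library. It was 39.2, 35.0 and 34.0 in MeWo control and 30.0, 69.7 and 73.2 in MeWo Dox. MeWo Dox replicate 1 was below every control, whereas the other Dox libraries were well above every control. The change over all libraries was 0.56 ± 0.26 (limma, adjusted p = 0.148), and without that library it was 0.97 and passed the threshold. In SkMel28 it was 11.1, 13.0 and 14.2 in control and 8.91, 11.4 and 9.37 with Dox, with 1 Dox library inside the control range. NADSYN1 was lower in SkMel28 than in MeWo by 1.43 ± 0.26 in control cells (limma, adjusted p = 0.000167).

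The pattern of NADSYN1, with Dox replicates 2 and 3 outside the MeWo control range on the same side and replicate 1 not, was found in 1 of 9 members and in 15 of 49 other NAD genes (30.6%). Over all genes it was found in 24.3%, against 7.86% and 6.31% for the same pattern with replicate 2 or 3 as the library apart. Of the 16 NAD genes, 9 had replicates 2 and 3 above the controls, among them the sirtuins SIRT2, SIRT6 and SIRT7, and 7 had them below, among them TIPARP, PARP3 and the tankyrase TNKS. Without MeWo Dox replicate 1, NADSYN1 (0.97) and NAPRT (0.72) newly passed in MeWo, in a fit in which 31% of all genes passed. The MeWo changes of TIPARP, SIRT7 and SIRT6 were −0.80, 0.39 and 0.67 with that library and −1.31, 0.57 and 0.91 without it, where all of them passed.

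**Figure D3:**
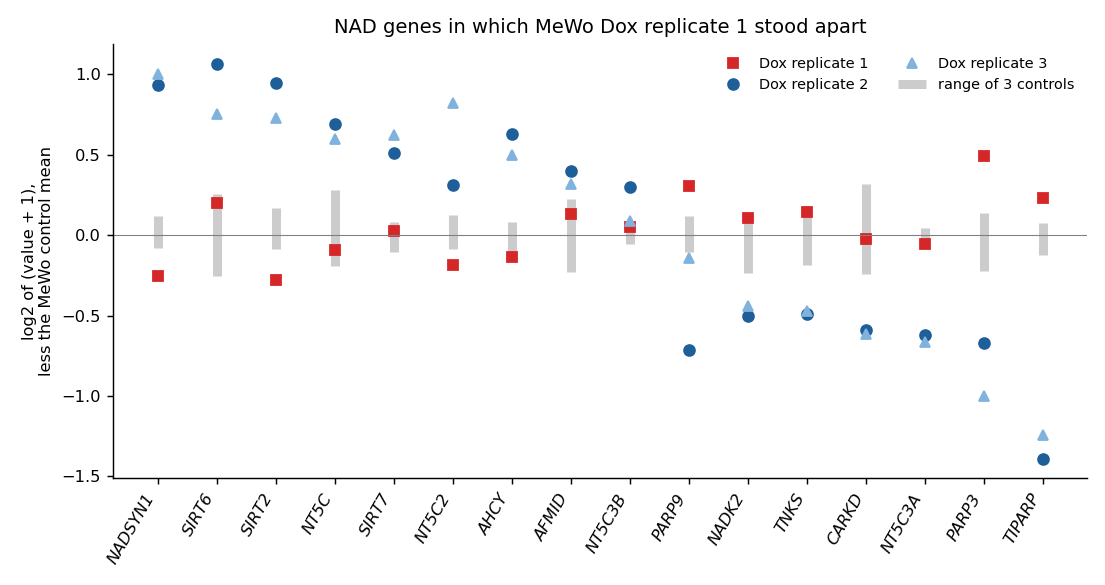
Values of each MeWo Dox library as log2(value + 1) less the mean of the 3 MeWo controls (y axis) for the 16 NAD genes (x axis) in which Dox replicate 1 stood apart; grey bars span the 3 controls. NADSYN1 lay at −0.25 in replicate 1 and at 0.94 and 1.00 in replicates 2 and 3, and TIPARP at 0.23 against −1.39 and −1.24.

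NMNAT1, the nuclear enzyme that joins NMN to the adenylyl group (chr1:9943428-9985501, plus strand), followed the line more than Dox. It was 8.93, 7.38 and 7.13 in MeWo control and 5.43, 9.85 and 5.76 in MeWo Dox. In SkMel28 it was 45.7, 43.8 and 40.6 in control and 53.1, 56.1 and 52.6 with Dox. Every SkMel28 library was above every MeWo library, by 2.34 ± 0.20 in control cells (limma, adjusted p = 3.67e-08) and by 2.82 with Dox. Within SkMel28 the Dox libraries were all above the controls, and the change of 0.31 ± 0.20 did not pass the threshold (limma, adjusted p = 0.383). Pseudogenes NMNAT1P1 to NMNAT1P5 are annotated and not listed, so reads shared with them cannot be told apart from those of NMNAT1.

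NADK phosphorylates NAD to NADP (chr1:1751232-1780457, minus strand) and did not differ detectably with Dox. It was 31.4, 29.1 and 30.1 in MeWo control, 31.0, 36.0 and 29.5 in MeWo Dox, 32.6, 40.6 and 52.1 in SkMel28 control and 36.8, 39.4 and 39.6 in SkMel28 Dox. Dox and control overlapped in both lines, with changes of 0.08 (95% interval −0.27 to 0.43) and −0.09 (−0.44 to 0.26). SkMel28 control was above MeWo control by 0.43 ± 0.17 (limma, adjusted p = 0.0384), a call that was lost under 8 of 22 alternatives and was 0.26 without SkMel28 control replicate 3. The call was likewise lost without each MeWo control replicate (0.41 to 0.46), SkMel28 control replicate 2 (0.44) or SkMel28 Dox replicate 2 (0.43).

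Of the 7 members other than NAMPT and NMRK2, NNMT and NT5E changed differently with Dox in the lines, where 7.09% of all genes passed that test. The differences of NADSYN1 (0.90) and NAPRT (0.78) did not pass over all libraries. Without MeWo Dox replicate 1 they were 1.31 and 0.89 and newly passed, in a fit in which 24.7% of all genes passed. The lines differed in 7 of 9 members in control cells, where 51.4% of all genes did. With Dox they differed in 6 of 9, where 53.6% of all genes did. The 7 include NMRK2 and the 6 include NAMPT, whose values were known when the list was made, so nothing is read from these counts. In control cells NT5E, NMNAT1, NMRK1, NNMT and NADK were higher and NMRK2 and NADSYN1 lower in SkMel28. NAMPT (0.29) and NAPRT (0.25) did not pass between the control groups. With Dox, NAMPT was higher in SkMel28 by 0.59, given as a description. It was 0.39 without MeWo Dox replicate 2 and 0.48 without SkMel28 Dox replicate 1. NAPRT was lower in SkMel28 with Dox by 0.53. The NAPRT call was lost without MeWo Dox replicate 2 (−0.44) or 3 (−0.50) or SkMel28 Dox replicate 1 (−0.53) or 2 (−0.47). These comparisons share libraries with the Dox comparisons above.

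Of 65 other genes of NAD metabolism, 49 were listed. In MeWo, 1 rose and 4 fell (10.2% of 49, against 16.7% of all genes), and in SkMel28, 1 rose and 1 fell (4.08%, against 10.9%). The median change of the 49 genes was −0.06 in MeWo and 0.00 in SkMel28.

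Among the consumers of NAD in MeWo, SIRT1, a nuclear protein deacetylase, was 21.9, 27.2 and 25.3 in control and 17.9, 8.34 and 10.5 with Dox. It fell by 1.02 ± 0.29 (limma, adjusted p = 0.0219), and the Dox library nearest to the controls was replicate 1. The call was lost without MeWo control replicate 2 (−0.95) or 3 (−1.0) or MeWo Dox replicate 2 (−0.80) or 3 (−0.95). PARP1, the main ADP-ribosyltransferase of the DNA damage response, was 187, 174 and 213 in control and 150, 102 and 131 with Dox, a fall of 0.59 ± 0.14 (limma, adjusted p = 0.00643) without overlap. SIRT6, another nuclear deacylase, was 28.5, 23.7 and 19.8 in control and 27.5, 50.8 and 40.6 with Dox. Its rise of 0.67 ± 0.22 (limma, adjusted p = 0.047) was lost under 13 of 22 alternatives, 9 of which left out 1 library (0.48 to 0.67), and MeWo Dox replicate 1 lay inside the control range. The 9 were MeWo control replicates 2 and 3, MeWo Dox replicates 2 and 3, SkMel28 control replicates 1 and 3, and each SkMel28 Dox replicate. Of the 7 sirtuins 1 rose and 1 fell in MeWo and none passed in SkMel28, and of 15 PARP family genes PARP1 alone passed in MeWo and TIPARP alone in SkMel28, where 16.7% and 10.9% of all genes passed.

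Outside these families, the nucleoside transporter SLC29A1 was 67.4, 50.5 and 45.7 in MeWo control and 36.1, 33.4 and 20.3 with Dox, and fell by 0.87 ± 0.21 (limma, adjusted p = 0.00769). NNT, the mitochondrial transhydrogenase that makes NADPH from NADH, was 65.9, 62.6 and 76.8 in control and 52.0, 48.5 and 43.4 with Dox, and fell by 0.50 ± 0.14 (limma, adjusted p = 0.0192). Both were lower in every Dox library. The SLC29A1 call was lost without MeWo control replicate 1 (−0.71), and the NNT call without MeWo control replicate 3 (−0.42) or MeWo Dox replicate 3 (−0.43). With scaling to the spike-in RNAs, the SIRT1 (−0.77), PARP1 (−0.32), SLC29A1 (−0.60) and NNT (−0.23) changes in MeWo did not pass.

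In SkMel28, TIPARP, a mono-ADP-ribosyltransferase of the PARP family, was 5.57, 6.35 and 6.90 in control and 16.0, 15.4 and 16.3 with Dox. It rose by 1.22 ± 0.32 (limma, adjusted p = 0.0206), with all Dox libraries well above every control, and the call was lost when any of the 6 SkMel28 libraries was left out (1.15 to 1.28). In MeWo it was 8.93, 7.77 and 9.07 in control and 10.2, 2.65 and 3.05 with Dox, so that the MeWo Dox libraries lay on both sides of the controls. APOA1BP (current symbol NAXE), which repairs damaged NADH and NADPH, was 165, 158 and 187 in SkMel28 control and 101, 104 and 129 with Dox, and fell by 0.61 ± 0.14 (limma, adjusted p = 0.0071) without overlap.

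**Figure D4:**
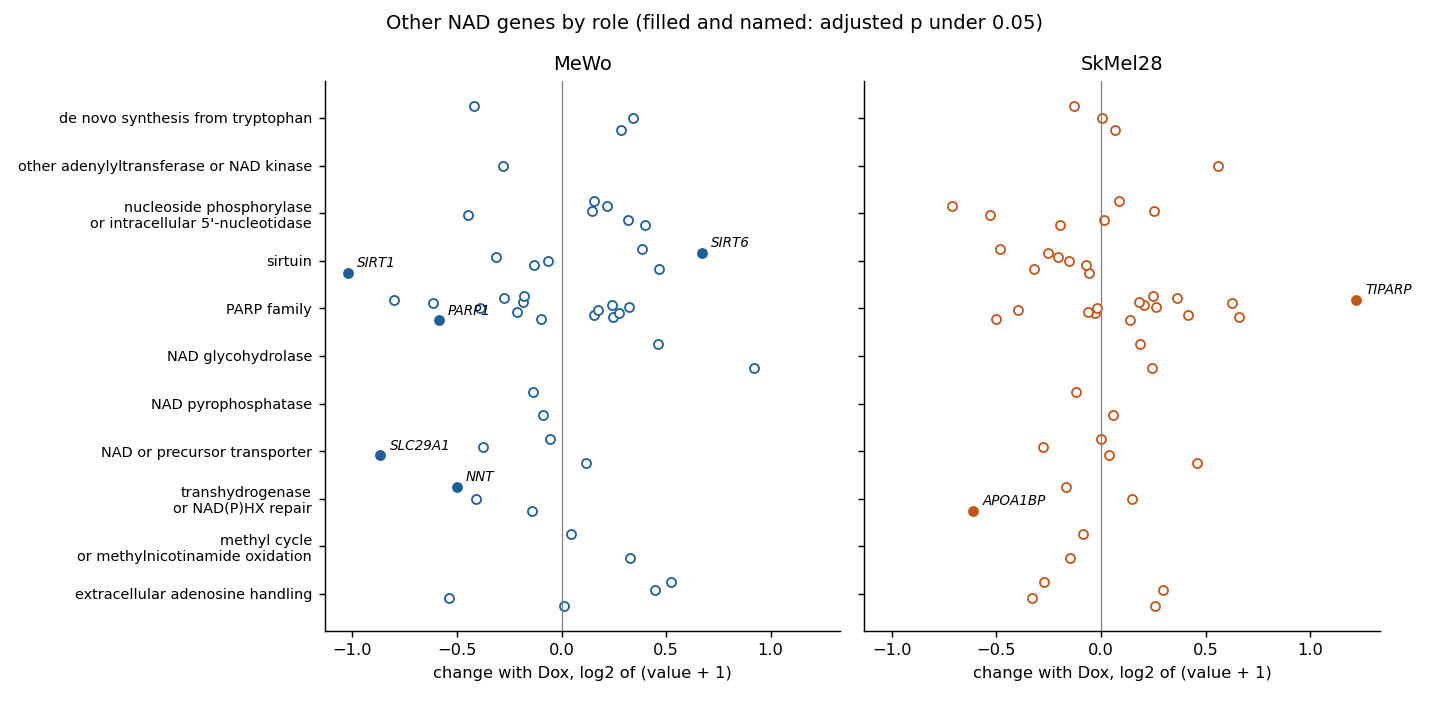
Change with Dox (x axis, difference of log2(value + 1)) of 49 other NAD genes grouped by role (y axis) in MeWo (left) and SkMel28 (right); each point is a gene, and filled points passed an adjusted p of 0.05 over all genes. In MeWo SIRT1 lay lowest at −1.02, and in SkMel28 TIPARP lay highest at 1.22.

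The lines also differed in 31 of the 49 other NAD genes in control cells, 9 higher and 22 lower in SkMel28 (63.3%, against 51.4% of all genes, 3352 higher and 3133 lower). ENTPD1 (CD39), which supplies NT5E with AMP by splitting ATP and ADP, was singled out after its values were seen. It was 24.9 ± 5.04 in SkMel28 control and 0.765 ± 0.741 in MeWo control (SD, n = 3). The difference of 3.93 ± 0.32 is given as a description. Both ectonucleotidases were thus higher in SkMel28. Of the 4 genes of extracellular adenosine handling among the 49, ENTPD1 was the only 1 higher in SkMel28 control. ADORA2B (−1.34) and ADK (−0.88) were lower, and ADA (−0.13) did not pass. ENTPD1, at 20.2 ± 1.98 in SkMel28 Dox, did not pass the threshold with Dox (−0.27, limma, adjusted p = 0.676). PNP, the phosphorylase that can split nicotinamide riboside, was also chosen after its values were seen, at 9.52 ± 3.05 in MeWo control against 4 reads over the 3 SkMel28 controls.

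The genes whose profile over the 12 libraries was nearest to that of a member were named by Pearson's r of log2(value + 1) among 9025 genes, as a description, since the libraries share lines and depth. For NAMPT they were SLC23A2 (r = 0.966), FAM3C (0.956) and RECK (0.932), and for NMRK2 they were VEPH1 (0.975), ITPKB (0.965) and ILVBL (0.965). For NNMT they were SOBP (0.970), GPC1 (0.967) and CSGALNACT1 (0.955), and for NT5E they were BHLHE22 (0.997), NRROS (0.995) and RPH3A (0.995). The NT5E profile mainly followed the gap between the lines.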

How the data were processed

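Total RNA of the 12 libraries (2568187 to 3714608 reads on the listed features) was sequenced from the 3′ end with a QuantSeq Forward kit. Per the labels, the submitters' processing notes name FastQC 0.11.7, cutadapt 2.8, STAR 2.5.1b, edgeR and hg38; the counting tool, its annotation and its strand setting are not given in the sources used here. The deposited values are a signal per gene, which the authors made by dividing reads by an effective library size (edgeR's trimmed mean scaling). All values (100%) came out as whole reads within 0.001 of a read. The deposited table lists genes of a value of at least 1 in 3 libraries; 67 spike-in RNAs (5.69 to 8.55% of reads) were left out of the tests. Groups came from the sample titles.

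Changes were tested with limma 3.58.1 (R 4.3.3) with a mean-variance trend on log2(value + 1) over 12616 genes and 12 libraries with 4 group means, two-sided, with Benjamini-Hochberg adjustment per comparison and a threshold of 0.05. The comparisons were Dox against control in each line, the difference of these changes, and SkMel28 against MeWo in control and Dox cells. The scripts were tested on simulated data. Alternatives were edgeR 4.0.16 and DESeq2 1.42.0 on the reads, other scalings, constants and filters, no trend, a replicate block, a fit of the 2 groups compared and leaving out each library. Nothing says that replicates were separate cultures, so p-values measure the spread between these libraries, which may be technical. Members and gene lists were chosen with earlier results of these data known. Named genes were the members, MITF, the other NAD genes that passed with Dox in either line, and for members that passed with Dox in at least 1 line and reached a group mean of 10, the 3 genes nearest by Pearson's r. NAMPT and NMRK2 were part of the fit over all genes and entered that last choice by the same rule. Gene positions are from GENCODE on hg38. Counting intervals are exact at 95% and cover counting error only.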

Additional observations from a re-analysis of the deposited data

Results flagged for a closer look

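The test of the difference in Dox change between the lines (limma, MeWo change less SkMel28 change) was passed by 7.09% of all genes. Among the members it was passed by NNMT (1.49, adjusted p = 0.0265, higher in all Dox libraries of both lines) and NT5E (1.01, adjusted p = 0.0106, lower in all SkMel28 Dox libraries and overlapping in MeWo). For NMRK2, one of the genes that led to the list, the difference of −1.99 is a description. Among the other NAD genes it was passed by 4 of 49 (8.16%), near the share of all genes. These were TIPARP (−2.02, adjusted p = 0.0136), PARP8 (−1.24, adjusted p = 0.0374), PARP1 (−0.73, adjusted p = 0.0317) and SIRT7 (0.87, adjusted p = 0.0453). TIPARP, PARP8 and PARP1 had positive changes in SkMel28 (1.22, 0.62 and 0.14) and negative ones in MeWo (−0.80, −0.62 and −0.59), whereas SIRT7 had a positive change in MeWo (0.39) and a negative one in SkMel28 (−0.49). Of these 4 genes, TIPARP passed in SkMel28 and PARP1 in MeWo, and no other change within a line passed. The differences of PARP1, PARP8 and SIRT7 lost their calls under 11, 11 and 13 of 21 alternatives, whereas that of TIPARP kept its call under all 21. PARP1 lost it without each control library (−0.65 to −0.79), MeWo Dox replicate 2 (−0.58) and SkMel28 Dox replicates 1 (−0.66) and 2 (−0.75). PARP8 lost it without MeWo control replicate 2 (−1.19) or 3 (−1.08), MeWo Dox replicate 2 (−1.05) and each SkMel28 library (−1.18 to −1.27). SIRT7 lost it without each MeWo control (0.82 to 0.91), MeWo Dox replicates 2 (0.81) and 3 (0.75), SkMel28 control replicates 1 (0.83) and 3 (0.81), and SkMel28 Dox replicates 1 (0.76) and 2 (0.91).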

How the results depend on the processing

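Over 22 alternatives, 918 of 981 values of the members kept their direction and side of the threshold, 32 fell back behind it, 22 newly passed it and 9 changed direction. Scaling to the spike-in RNAs moved the median gene by 0.22 in MeWo and 0.30 in the difference between lines (−0.08 in SkMel28). It turned the MeWo changes of NMNAT1 (0.0647), NT5E (0.147) and APOA1BP (0.129), the SkMel28 change of SLC29A1 (−0.0566), and the differences of NAMPT (0.0632) and NNT (0.0298). Counts of members here include NAMPT and NMRK2, and nothing is read from them. With spike-in scaling 5 members passed in MeWo, where 2480 of 12616 genes passed. In the difference 5 members passed, where 1519 genes passed (1360 higher in MeWo and 159 lower, against 468 and 426). The MeWo split was then 2097 higher to 383 lower, against 1082 to 1025, and the SkMel28 split 394 to 533, against 742 to 636. Fitting MeWo alone left 813 genes. DESeq2 left 1 member in the difference, where 983 genes passed, and the fit without a trend left 554 genes there.

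Leaving out single libraries gave 2 to 5 of 9 members and 1281 to 3913 of 12616 genes in MeWo. In SkMel28 it gave 3 to 4 and 784 to 2042, and in the difference 2 to 5 and 449 to 3115. Between control groups it gave 6 to 7 and 5685 to 7145, and between Dox groups 4 to 6 and 5974 to 7193. The highest Dox counts came without MeWo Dox replicate 1. The MeWo count was 1281, 1320 or 1301 without control replicate 2, control replicate 3 or Dox replicate 3, and the SkMel28 count 833, 818 or 784 without control replicate 3, Dox replicate 1 or Dox replicate 2. The difference between the lines was called for 449 or 488 genes without MeWo control replicate 2 or 3, 556 without MeWo Dox replicate 3, 527 without SkMel28 control replicate 2 or 3, and 475 or 493 without SkMel28 Dox replicate 1 or 2. Leaving out 1 library also turned changes near 0. These were NT5E in MeWo without Dox replicate 3 (range −0.154 to 0.00384), NMRK1 in SkMel28 without control replicate 1 (−0.205 to 0.0432) or Dox replicate 2 (0.0309), NAPRT (−0.379 to 0.0305) and NADK (−0.248 to 0.0829) in SkMel28 without control replicate 3, SIRT1 in SkMel28 without control replicate 1 (−0.24 to 0.269) or Dox replicate 1 (0.0571), SLC29A1 in SkMel28 without control replicate 2 (−0.0595 to 0.162) or Dox replicate 2 (−0.0265), and the NADK difference without SkMel28 control replicate 3 (−0.000738 to 0.33). The cause was not tested in any of these.

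Deviations of same-numbered replicates from their group means, within and across lines, correlated at r = −0.305 to 0.289. As each mean is of 3 libraries, this cannot exclude pairing, and whether the numbers pair the libraries stayed undecided. A fit with the replicate block called 1980 genes in MeWo, 1191 in SkMel28 and 820 in the difference. At 0 to 9 reads per library, depth limits what can be told. That holds for NMRK2 with Dox and in SkMel28, for NMRK1 in MeWo and for NNMT in MeWo control.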
